A study of Mus musculus with 4 samples.

Results

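Dppa3-high cells were the kept cells of a mouse embryonic stem cell culture that stood in the highest 5% of their library by the share of UMIs (unique molecular identifiers, each standing for 1 captured mRNA molecule) that came from Dppa3, and that held at least 2 Dppa3 UMIs. They numbered 1601 of 31989 kept cells, with 406 of 8118 in library 1, 426 of 8514 in library 2, 395 of 7893 in library 3 and 374 of 7464 in library 4. They were set against the kept cells of the same library in which no Dppa3 UMI was counted, which numbered 6404, 4346, 5085 and 4413 in libraries 1 to 4. The members were chosen by their Dppa3 counts, so every value below that sets them against other cells describes the chosen cells and carries no test.

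The study profiled E14tg2a.4, a male mouse embryonic stem cell line, with the Chromium Single Cell 3' v3 kit, in 2 wild-type (WT) samples and 2 samples of the Srrm2 hKO line. The hKO is a single gene-trap line, CG0630, with a heterozygous truncation of Srrm2, which encodes a splicing factor of nuclear speckles. All samples had been grown on gelatin with LIF, the cytokine that holds these cells in self-renewal, and moved to a serum-free ESGRO medium, also with LIF, for a time that the labels give as either 24 h or 72 h. The study's methods for single cells give another culture time, and which applies here is not known. The single deposited matrix numbers its libraries 1 to 4 and nothing used here ties a number to a labelled sample, so WT and hKO are not compared and each library is given on its own. The study describes independent replicates of each line, and no range over the 4 libraries below is a spread within a genotype.

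Dppa3 (also called Stella or PGC7) encodes a small protein of oocytes, the early embryo and primordial germ cells that protects the maternal genome from oxidation of methylated cytosine in the zygote and, by binding Uhrf1, limits methylation in oocytes. In embryonic stem cell cultures it is known to be unevenly expressed and is often used as a marker of the naive, preimplantation-like state, in contrast to the formative state that precedes lineage choice. Several germline genes, the Rhox homeobox genes among them, are known to be silenced by DNA methylation as the embryo implants.

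Kept cells of libraries 1 to 4 held between 166839268 and 200180473 UMIs in all. Members and cells without a Dppa3 UMI were alike in median depth. The median member held 17657, 20887, 18666 and 20594 UMIs in libraries 1 to 4, against 18049, 21055, 18901 and 20695 in cells with no Dppa3 UMI, and the median number of detected genes was 4034, 4441, 4098 and 4342 against 4031, 4522, 4168 and 4516. The median mitochondrial share was also close, from 3.56% to 5.30% in members and from 3.48% to 5.42% in the others. Very deep cells were rarer among members: 29 of 1601 held over 2 times the median UMIs of their library, against 1615 of 31989 kept cells. Total UMIs are the denominator of the share that chose the members, so this is not read as a trait of the cells. A barcode sequence that also occurred in another library was found in 7 members and 257 kept cells.

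Dppa3 was counted at 24.4, 74.0, 48.8 and 60.7 UMIs per 1000000 (CPM) over the kept cells of libraries 1 to 4, so library 1 was the lowest and library 2 the highest. No Dppa3 UMI was seen in 78.9%, 51.0%, 64.4% and 59.1% of kept cells. Per cell the counts were uneven, with a variance of 3.81, 5.12, 4.43 and 5.34 times the mean. The members, 5% of cells, held 51.4%, 30.2%, 36.5% and 35.1% of all Dppa3 UMIs of their library. Their summed level was 271, 484, 388 and 460 CPM, and the median member held 4, 9, 7 and 9 Dppa3 UMIs, with a highest count of 19, 33, 26 and 33.

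No gap in the counts separated the members from other cells. The cut lay at 153, 333, 257 and 312 CPM, so a member of library 1 could hold less Dppa3 than a cell left out of library 2. The lowest member and the highest cell below the cut stood at 153.8 and 152.8 CPM in library 1, 333.6 and 333.3 in library 2, 256.6 and 256.6 in library 3, and 311.7 and 311.3 in library 4. Within 10% of the cut lay 65, 105, 93 and 87 cells below it and 49, 86, 61 and 66 members above it.

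**Figure D1:**
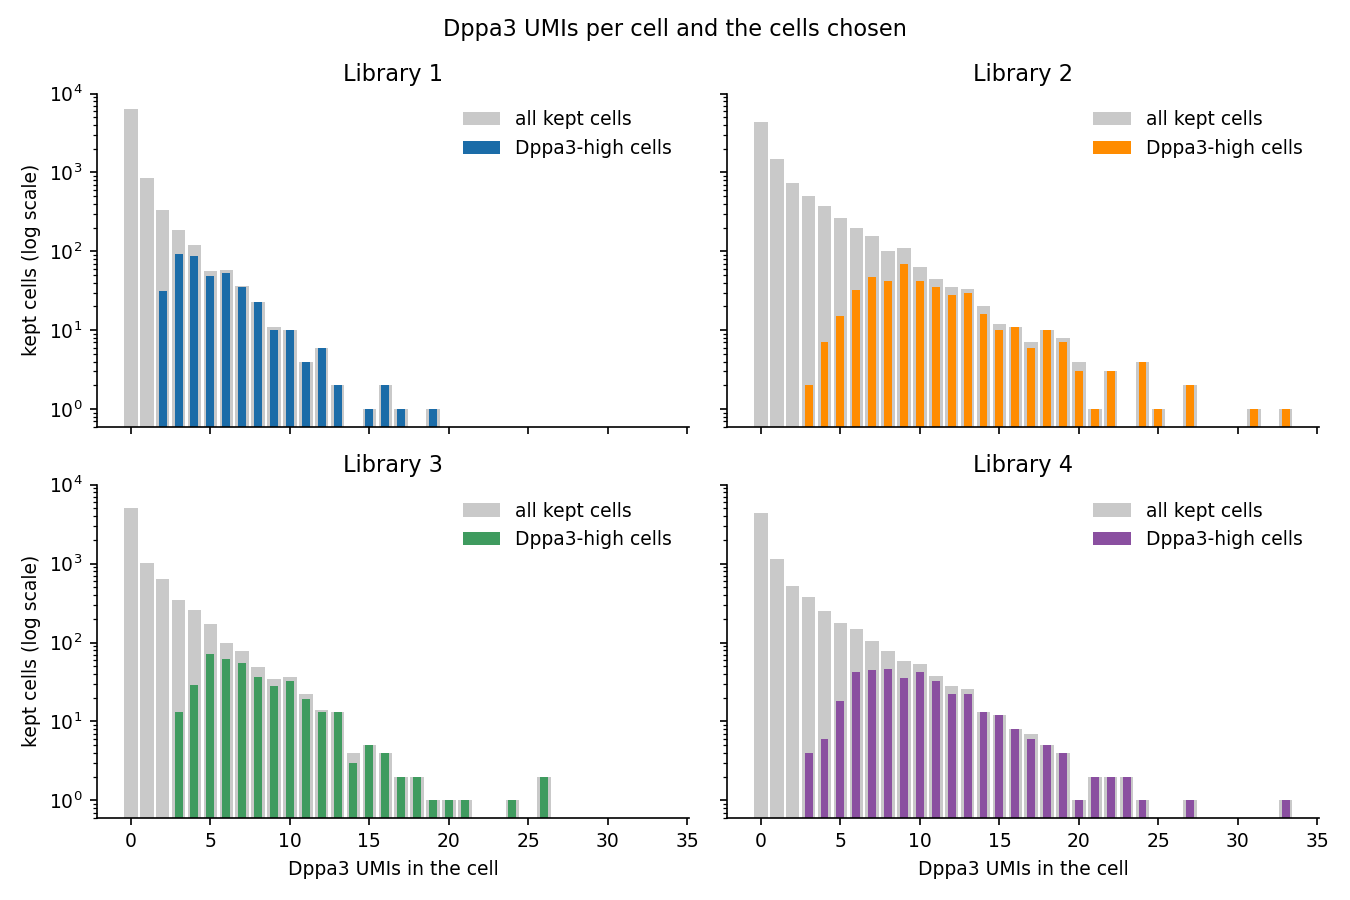
Number of kept cells (log scale) by the Dppa3 UMIs they held, in each of the 4 libraries, with all kept cells as wide grey bars and Dppa3-high cells as narrow coloured bars. The members run up to 19 UMIs in library 1 and 33 in libraries 2 and 4, and they overlap other cells at low counts because the cut was set on the share of UMIs.

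The level held up in UMIs that had not served to choose the cells. Each cell's UMIs were split at random into 2 equal parts, the cells were chosen on one part, and Dppa3 was read from the other. The cells so chosen stood at 316, 527, 437 and 498 CPM in the part that chose them and at 188, 365, 277 and 354 CPM in the other part, with exact Poisson 95% intervals of 174 to 202, 348 to 383, 261 to 294 and 336 to 373. Cells with no Dppa3 UMI in the choosing part had 9.01, 25.6, 15.3 and 19.04 CPM in the other. A Dppa3 UMI was found again in 71.2%, 91.1%, 83.3% and 91.1% of the chosen cells. Dppa3 was thus lower in the second part than in the part used for choosing, and still far above the other cells in all 4 libraries. These intervals, and all others below, cover counting error only.

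A gene was counted as higher or lower when its CPM, taken without Dppa3, differed at least 1.5-fold between members and cells with no Dppa3 UMI in the same direction in all 4 libraries, and when the mean of both classes was at least 10 CPM in each library. Of 6585 genes at that level, 11 were higher (0.167%) and 25 were lower (0.38%). The median log2 ratio over all of them was near 0 in every library, from -0.06 to -0.003. Library 1 held the counts down: without it 34 genes were higher and 103 lower, and without library 3 the higher genes numbered 18. A lower bar of 5 CPM gave 20 higher and 52 lower genes. To any extent, 17.6% of the genes were higher and 27.4% lower in all 4 libraries. Because the level was taken over both classes, a gene could be considered through the class in which it was high, so the counts of list members below describe the lists and support nothing.

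**Figure D2:**
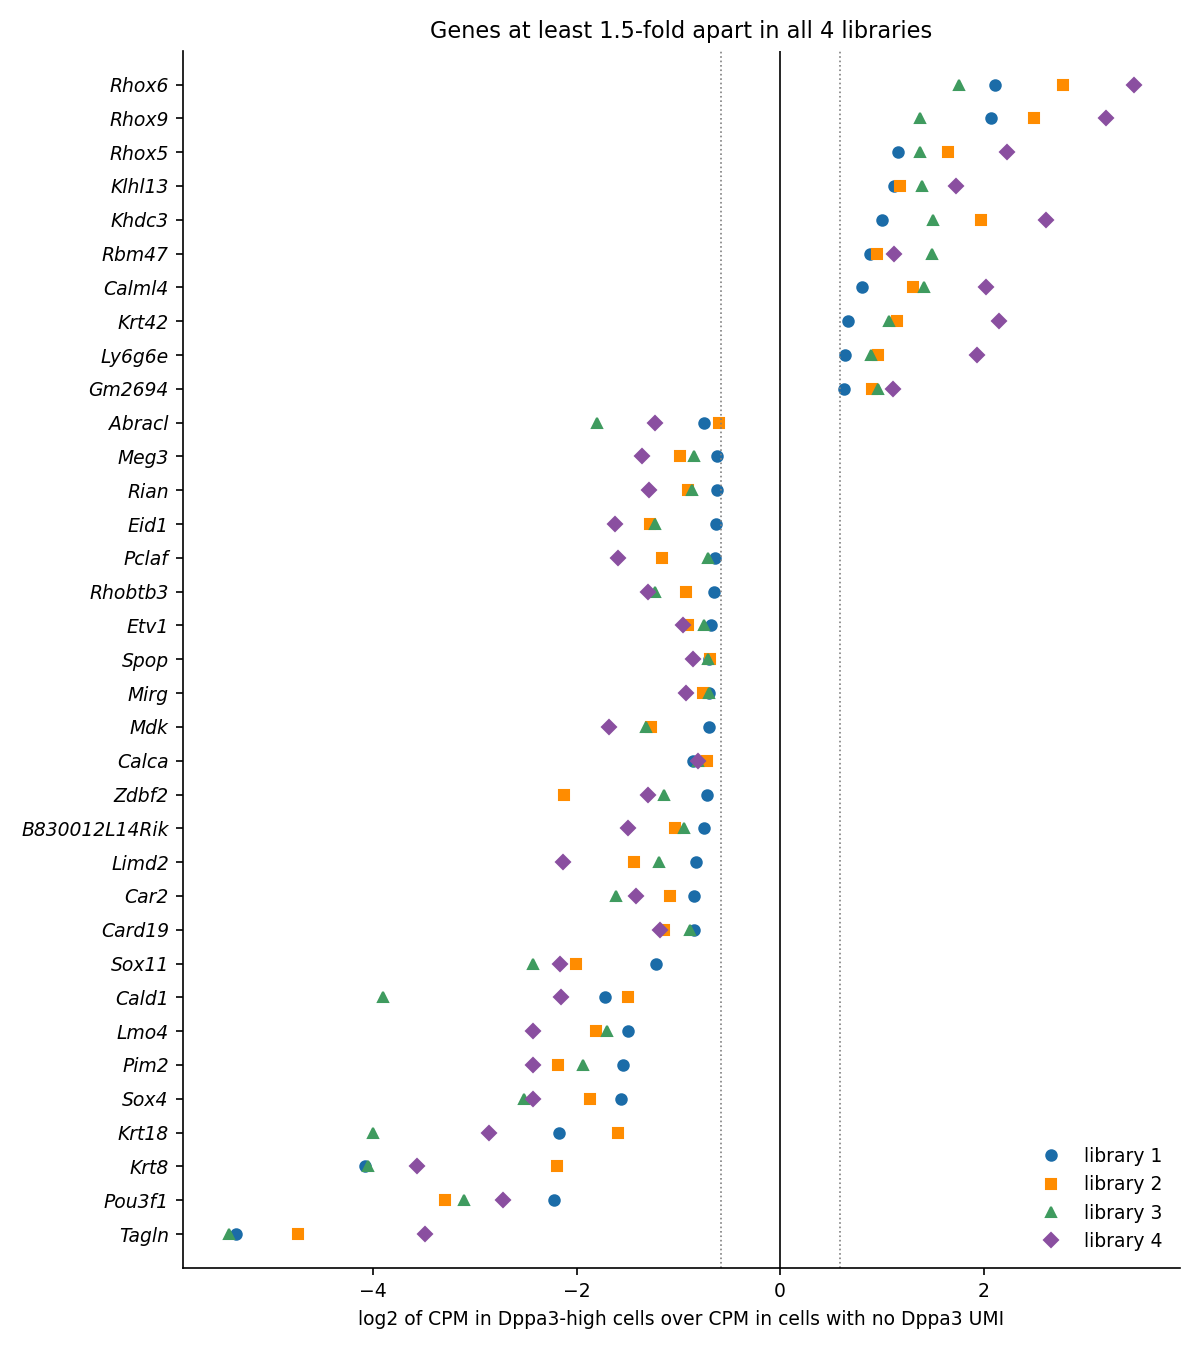
The log2 ratio of CPM in Dppa3-high cells over cells with no Dppa3 UMI for the first 10 of the 11 higher genes and the 25 lower genes, with a marker for each of the 4 libraries and dotted lines at 1.5-fold. Rhox6 and Rhox9 lead the higher genes and Tagln, Pou3f1, Krt8 and Krt18 the lower ones.

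Ordered by the smallest ratio over the 4 libraries, the first 3 higher genes were X-linked homeobox genes of the Rhox cluster, a family expressed in the reproductive tract, placenta and germ cells. In libraries 2 to 4 Khdc3, described below, had larger ratios than Rhox5. Rhox6 (ENSMUSG00000006200, chrX:37826910-37829857, mm10) stood at 52.5, 63.0, 23.8 and 79.8 CPM in members of libraries 1 to 4 and at 12.2, 9.18, 7.04 and 7.13 CPM in cells without a Dppa3 UMI. All 4 member values lay above all 4 others, and the difference was 4.32-, 6.87-, 3.38- and 11.2-fold. Rhox9 (chrX:37899097-37901770) stood at 61.4, 55.0, 23.2 and 64.9 CPM against 14.6, 9.72, 8.96 and 7.06 CPM. Its 95% intervals for the log2 ratio ran from 1.93 to 2.22 in library 1, from 2.34 to 2.66 in library 2, from 1.14 to 1.60 in library 3 and from 3.03 to 3.37 in library 4. Rhox6 and Rhox9 are paralogs, and how reads common to both were assigned was not examined here. Rhox5 (also Pem, chrX:37804842-37808876) stood at 174, 325, 134 and 159 CPM against 77.6, 104, 51.6 and 33.9 CPM, which was 2.24-, 3.14-, 2.60- and 4.70-fold. Library 3 was the lowest for all 3 genes in members, and library 4 had the widest gap between the classes. The other 31 Rhox genes of the matrix summed to 10.9 to 15.3 CPM in members, and at least 25 of them had no UMI there in any given library.

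The Rhox signal was spread over many members but not all. A Rhox6 or Rhox9 UMI was present in 53.7%, 54.0%, 39.5% and 54.8% of members and in 29.6%, 20.9%, 18.9% and 11.4% of cells with no Dppa3 UMI. With every cell thinned to 5000 UMIs the shares were 28.1%, 27.7%, 17.5% and 31.0% against 11.1%, 7.4%, 6.7% and 4.7%. The cultures held no cell type named by the labels as one that lacks these genes, so none was at hand to measure what free RNA in the droplets adds to such shares. Members with a Rhox6 or Rhox9 UMI held Dppa3 at 274, 506, 409 and 474 CPM and those without at 267, 457, 374 and 443 CPM. Depth was similar, with medians of 17711, 21413, 18566 and 20497 UMIs against 17433, 20562, 18762 and 21063. Their Khdc3 level was 105, 113, 106 and 125 CPM against 69.1, 67.9, 68.4 and 79.5 CPM, and Tfap2c was 79.9, 98.0, 67.0 and 86.8 CPM against 55.7, 57.0, 51.6 and 42.7 CPM. The naive list did not separate them, at 1975, 1886, 1770 and 1679 CPM against 2003, 1950, 1771 and 1653 CPM.

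A processed copy of Dppa3, Dppa3-ps, is annotated in the same cluster (ENSMUSG00000080241, chrX:37625647-37626097, minus strand, GENCODE vM21), 179 kb from Rhox5, 201 kb from Rhox6 and 273 kb from Rhox9. It had no row in the matrix. Its 451-base transcript aligned without gaps to positions 116 to 566 of the 833-base Dppa3 transcript, with 443 identical bases and 8 mismatches, and the aligned part ended 267 bases before the 3' end of Dppa3, the end from which this kit reads. The longest run without a mismatch was 86 bases. Dppa3 itself (ENSMUSG00000046323) lies at chr6:122626410-122630272. How reads of the copy were assigned was not examined, and the copy's part in the Rhox result was not tested. Rhox2g, Rhox3g and Rhox4g, the genes annotated around it, together had at most 1 UMI in the members of any library.

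Klhl13, an adaptor of a cullin ubiquitin ligase, was the fourth X-linked gene among the 11. Of the 6585 genes considered, 200 lie on the X chromosome. The other X-linked genes, Rhox5, Rhox6 and Rhox9, belong to a single cluster. Rhox6 and Rhox9 reached the level required in libraries 2 to 4 only through the members, so nothing is read from that count. Klhl13 stood at 51.8, 148, 71.5 and 152 CPM in members against 23.9, 65.5, 27.3 and 45.9 CPM. Each member value was higher than its own library's value in the other cells, while the classes overlapped across libraries. The chromosome as a whole did not share this, with a median log2 ratio over its genes of -0.02, -0.03, -0.03 and -0.08.

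Khdc3 (also Filia), which encodes a protein of the subcortical maternal complex of oocytes and early embryos, was the strongest autosomal gene. Members stood at 89.3, 92.8, 83.7 and 105 CPM, and the other cells at 44.6, 23.6, 29.5 and 17.0 CPM. The level in members was nearly the same in all 4 libraries, whereas that of the other cells was 2.00-, 3.93-, 2.84- and 6.14-fold lower. Of the other 11 genes on the oocyte and maternal effect list, Ooep, a partner of Khdc3 in that complex, was the only one considered by level, and it stood at 248, 171, 215 and 158 CPM against 236, 129, 143 and 66.4 CPM, with log2 ratios of 0.07, 0.41, 0.59 and 1.25. Some oocyte genes of the list were at or near 0 in members: Gdf9 at most 0.22 CPM, Figla at most 0.63 CPM, and Bmp15 and Oosp1 without a UMI. These are examples, and the rest of the list below the level required is not reported here. Of all 12 genes, 4, 4, 6 and 3 had no UMI in members of libraries 1 to 4. The whole list, Khdc3 and Ooep included, stood at 343, 279, 305 and 271 CPM against 285, 163, 177 and 88.2 CPM.

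RefSeq promoters were at hand for 7 of the 11 higher and 19 of the 25 lower genes. Those of the first 2 genes in each direction that had a single RefSeq start are printed here because methylation of CpG sites is the known means by which genes such as Rhox5 are silenced. Each runs 5′ to 3′ on the gene's strand from 250 bases before to 50 bases after the start in GRCm38.p6, with CpG sites in capitals. The Rhox5 start lies 50.2 kb before the gene's start in GENCODE. The places are chrX:37754358-37754657 on the plus strand, chr9:73102148-73102447 on the plus strand, chr15:102004293-102004592 on the minus strand and chr15:102027966-102028265 on the plus strand, in the order printed.
Rhox5: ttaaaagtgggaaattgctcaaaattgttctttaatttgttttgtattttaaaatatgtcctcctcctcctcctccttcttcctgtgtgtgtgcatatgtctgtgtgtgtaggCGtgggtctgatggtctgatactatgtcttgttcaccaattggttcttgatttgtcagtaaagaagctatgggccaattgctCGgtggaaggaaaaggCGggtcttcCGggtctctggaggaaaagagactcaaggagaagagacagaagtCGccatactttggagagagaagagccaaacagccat
Khdc3: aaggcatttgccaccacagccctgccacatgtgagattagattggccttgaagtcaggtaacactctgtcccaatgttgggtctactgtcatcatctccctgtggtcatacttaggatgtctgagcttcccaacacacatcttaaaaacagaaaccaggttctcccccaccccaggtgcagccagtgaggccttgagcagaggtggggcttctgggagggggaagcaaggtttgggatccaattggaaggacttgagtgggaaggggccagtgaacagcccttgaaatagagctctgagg
Krt8: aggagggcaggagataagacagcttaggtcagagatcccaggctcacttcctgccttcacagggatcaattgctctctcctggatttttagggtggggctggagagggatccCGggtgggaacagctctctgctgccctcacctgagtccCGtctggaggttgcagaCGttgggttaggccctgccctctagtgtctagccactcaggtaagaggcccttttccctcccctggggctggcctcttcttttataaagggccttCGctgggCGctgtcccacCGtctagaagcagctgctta
Krt18: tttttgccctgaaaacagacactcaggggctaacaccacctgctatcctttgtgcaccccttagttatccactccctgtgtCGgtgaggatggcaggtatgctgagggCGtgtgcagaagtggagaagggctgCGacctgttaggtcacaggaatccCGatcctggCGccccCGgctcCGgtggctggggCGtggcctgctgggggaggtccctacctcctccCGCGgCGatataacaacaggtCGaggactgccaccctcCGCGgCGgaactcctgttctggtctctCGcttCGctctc

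The Rhox5 promoter held 5 CpG sites (the letters CG, read the same on both strands), Khdc3 held 0, Krt8 held 6 and Krt18 held 17. Among 32851 promoters of this length the median was 7, 62.0% held at least as many as Rhox5, and 5.43% held none, as in Khdc3. Over all promoters of called genes the median was 8 for the 13 of higher genes and 15 for the 28 of lower genes. These medians count promoters, and some genes, such as Klhl13 and Rbm47, gave several. The 32851 promoters were taken whatever the level of their genes here, so the medians of called genes are not compared with theirs. The higher set ranged from 0 to 42 CpG sites and the lower set from 0 to 53, so they overlapped widely.

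The other higher genes were autosomal. Calml4, a calmodulin-like protein, stood at 27.3, 22.0, 54.2 and 39.3 CPM in members against 15.6, 8.89, 20.3 and 9.69 CPM. Rbm47, an RNA-binding protein with roles in splicing and RNA editing, stood at 15.8, 44.3, 26.5 and 47.5 CPM against 8.56, 23.0, 9.42 and 21.9 CPM. Krt42, a type I keratin, stood at 61.9, 91.8, 37.1 and 66.1 CPM against 39.0, 41.3, 17.6 and 14.9 CPM. It was thus higher in members while Krt8 and Krt18 were lower. Ly6g6e, a GPI-anchored Ly6 protein, had log2 ratios of 0.64, 0.96, 0.89 and 1.94, and the noncoding transcript Gm2694 of 0.63, 0.91, 0.96 and 1.11. With separate UMIs for choosing and reading, Gm2694 had 0.14 and Krt42 0.47 in library 1. In that setting 8 of the 11 higher genes stayed 1.5-fold higher in all 4 libraries.

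Of 17 marker genes of primordial germ cells and the germline, 10 were considered by level and 3 of those were 1.5-fold higher in all 4 libraries, all of them Rhox genes, against 0.167% of all genes considered. Rhox6 and Rhox9 reached the level required in libraries 2 to 4 only through the members, so nothing is read from that count. The summed list was higher in members by 0.42, 1.04, 0.49 and 1.25 on the log2 scale. Without the Rhox genes the values were -0.01, 0.38, 0.19 and 0.49. Tfap2c, a transcription factor of germ cell specification, came nearest, at 69.2, 79.7, 57.9 and 67.4 CPM against 46.2, 38.1, 28.8 and 15.8 CPM, and missed only in library 1, where the log2 ratio was 0.58. Nanos3, which protects early germ cells, stood at 8.42, 10.5, 12.2 and 4.22 CPM against 3.88, 4.21, 4.37 and 1.47 CPM, below the level required but with log2 ratios of 1.12, 1.32, 1.48 and 1.52. Prdm1 (Blimp1), the founding regulator of germ cell fate, had log2 ratios of 0.08, 0.63, 0.19 and 1.42, and Kit, a receptor of migrating germ cells, of 0.06, 1.29, 0.45 and 1.92. Of genes of later germ cells, Ddx4 had ratios of -0.21, -0.23, -0.58 and -0.98, and Sycp3, of the meiotic chromosome axis, of -0.34, -0.35, -0.23 and -0.60. These are examples. Of the 7 genes other than Rhox considered by level, 4 were higher and 2 lower to any extent in all 4 libraries. Of all genes considered, 17.6% and 27.4% were. The median log2 ratio of the 7 was 0.08, 0.47, 0.45 and 0.82 in libraries 1 to 4.

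The naive genes differed between libraries in how far they went with Dppa3. None of the 10 naive genes, 8 of which were considered by level, was 1.5-fold higher in all 4 libraries, a criterion that 0.167% of all genes met. To any extent 5 of the 8 were higher in all 4, against 17.6% of all genes. Their summed level was 1988, 1916, 1771 and 1668 CPM in members and 1918, 1418, 1289 and 705 CPM in cells with no Dppa3 UMI. The members lay close together over the libraries while the other cells ranged widely, and the log2 ratio was 0.05 (95% interval 0.03 to 0.08), 0.43 (0.41 to 0.46), 0.46 (0.43 to 0.48) and 1.24 (1.22 to 1.27). In library 1, then, Dppa3-high cells were hardly more naive than the rest by this list, and in library 4 they were over 2-fold higher.

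Single naive genes other than Klf5 differed least in library 1 and most in library 4. Nanog, the homeodomain factor of ground-state self-renewal, stood at 171, 183, 141 and 131 CPM in members against 154, 115, 94.5 and 48.2 CPM. Zfp42 (Rex1), the usual reporter of the naive state, stood at 517, 643, 527 and 669 CPM against 515, 476, 371 and 254 CPM. Klf2 had log2 ratios of 0.19, 0.42, 0.60 and 1.40, Klf4 of -0.04, 0.34, 0.52 and 1.46, Esrrb of -0.05, 0.39, 0.43 and 1.57, Tfcp2l1 of 0.17, 0.55, 0.49 and 1.55, and Nr5a2 of 0.17, 0.45, 0.51 and 1.40. These 5 transcription factors of the naive network were all nearest to 0 in library 1 and furthest from it in library 4. Klf5 hardly differed, at -0.11, 0.21, -0.06 and 0.23. Tbx3, a T-box factor that was too low in library 4 to be considered, turned from -0.25 in library 1 to 1.23, 0.32 and 2.42 in the others. Prdm14, which represses de novo methylation genes, had 0.14, 1.07, 0.59 and 1.87 at levels below 10 CPM.

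Cell by cell, members were rare among the least naive cells of most libraries. When kept cells were ranked by naive list level and split into 5 equal parts per library, members made up 4.06%, 0.705%, 0.507% and 0.067% of the lowest part and 4.68%, 6.75%, 6.33% and 11.4% of the highest. In library 1 the share peaked in the middle part, at 6.40%.

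Genes of general pluripotency went both ways. The 6 core genes (Pou5f1, Sox2, Sall4, Utf1, Tdgf1 and Lin28a) summed to log2 ratios of 0.00, -0.07, 0.13 and -0.01. Pou5f1 (Oct4) stood at 810, 755, 680 and 728 CPM in members against 851, 805, 645 and 777 CPM. Sox2, its partner factor, was higher in members of every library, with log2 ratios of 0.16, 0.31, 0.46 and 0.82, while Lin28a, an RNA-binding protein that blocks let-7 maturation, was lower, with -0.29, -0.56, -0.36 and -0.71. The 15 S phase genes gave -0.03, -0.06, 0.09 and -0.01 and the 15 G2/M genes 0.05, 0.00, 0.08 and 0.02. The 10 SRSF and Srrm splicing genes gave -0.02, -0.11, -0.01 and -0.08. Of the related Dppa genes, Dppa5a, an RNA-binding protein of pluripotent cells, had log2 ratios of 0.11, 0.39, 0.51 and 0.96, while Dppa2 and Dppa4, which pair in priming developmental promoters, ranged from 0.01 to 0.30, and Dppa1 had no UMI in either class.

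Neighbours of Dppa3 on chromosome 6 were examined because it lies in a cluster with other genes of pluripotent cells. Gdf3, a TGF-beta family ligand 16.3 kb away, had log2 ratios of -0.02, 0.17, 0.16 and 0.36. Slc2a3 (Glut3), a glucose transporter 97.5 kb away, had 0.00, 0.35, 0.15 and 0.40. Apobec1, a cytidine deaminase 24.0 kb away, stood at 2.70 to 5.05 CPM in members and 2.47 to 4.27 CPM in the others. Nanog, 77.2 kb away, was the only neighbour above 1 in any library among those considered. Further off, Phc1, a Polycomb protein 286 kb away, had -0.10, -0.22, -0.10 and -0.18, the mannose 6-phosphate receptor M6pr, 309 kb away, had -0.09, -0.07, -0.27 and -0.24, and Rimklb ranged from -0.01 to 0.15. None of the 7 neighbours considered by level was 1.5-fold higher in all 4 libraries, a criterion that 0.167% of all genes met, so nothing is read from this count. C3ar1 and Foxj2 stayed under 2 CPM in members, and Necap1, an endocytosis protein, had ratios of 0.07, 0.23, -0.06 and 0.13.

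**Figure D3:**
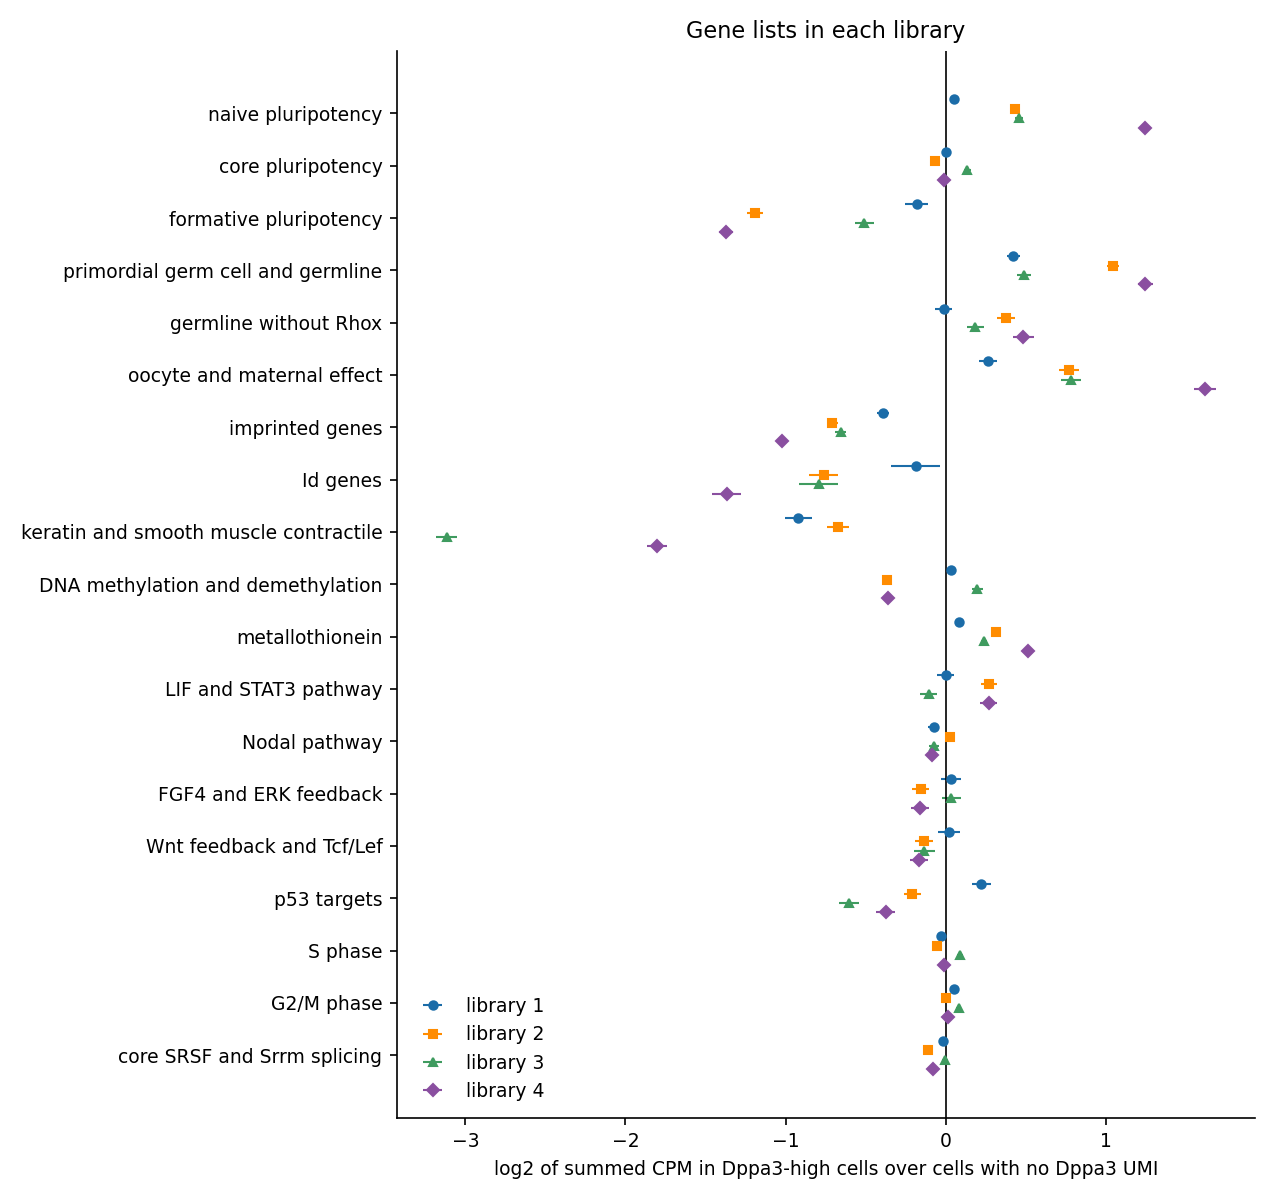
The log2 ratio of the summed CPM of each gene list in Dppa3-high cells over cells with no Dppa3 UMI, with a marker for each library and bars for the 95% interval from counting error. The naive list runs from 0.05 in library 1 to 1.24 in library 4, the keratin and contractile list reaches -3.12 in library 3, and the cell cycle lists lie near 0.

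The formative list was lower in members, but its genes differed widely. Pou3f1 (Oct6), a POU factor of the epiblast after implantation, stood at 4.02, 10.5, 9.12 and 31.1 CPM in members and at 18.7, 103, 78.6 and 206 CPM in cells with no Dppa3 UMI, which was 4.67-, 9.82-, 8.63- and 6.60-fold lower. It was the only one of 6 formative genes considered by level that was 1.5-fold lower in all 4 libraries, against 0.38% of all genes considered. In libraries 1 and 3 it reached the level required only through the cells with no Dppa3 UMI, so nothing is read from that count. To any extent 2 of the 6, Pou3f1 and Dnmt3b, were lower in all 4, against 27.4% of all genes. The formative list summed to 202, 397, 308 and 496 CPM in members against 229, 905, 439 and 1284 CPM, or log2 ratios of -0.18, -1.19, -0.51 and -1.37. Here too library 1 showed the smallest difference, and its cells had little formative signal in either class.

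Dnmt3b, the de novo DNA methyltransferase of the formative state, stood at 70.6, 179, 108 and 230 CPM in members against 81.1, 461, 151 and 676 CPM, with log2 ratios of -0.20, -1.36, -0.47 and -1.56. Dnmt3a had 0.06, -0.78, -0.26 and -0.79. Otx2, a driver of the exit from the naive state, turned from 0.31 in library 1 to -0.58, -0.09 and -0.64. Etv4 had -0.15, -0.85, 0.14 and -0.89, and Tcf15 stayed between -0.28 and 0.04. The low-level genes Sox3, Sall2 and Lef1 were lower in every library, Sox3 by ratios between -2.51 and -1.96, Sall2 between -2.76 and -0.92, and Lef1 between -1.70 and -0.18. Fgf5, a growth factor that marks formative epiblast, had 0, 11, 4 and 18 UMIs in members against 126, 1177, 224 and 1924 in the others. In library 1 it was at least 2.52-fold lower, taking a floor of 3 UMIs for the members, and in the others the log2 ratio was -3.37, -2.05 and -3.16.

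Other DNA methylation genes had smaller differences than Dnmt3b in libraries 2 and 4. Dnmt3l, the cofactor of the de novo enzymes, had log2 ratios of 0.21, 0.15, 0.78 and 0.80. Dnmt1, the maintenance enzyme, had 0.05, 0.01, 0.19 and 0.07, and Uhrf1, its recruiter and a binding partner of the Dppa3 protein, had -0.07, -0.14, 0.28 and -0.06. Tet1 and Tet2, which oxidise methylcytosine, ranged from 0.05 to 0.51 and from -0.06 to 0.92. None of the 8 enzymes considered by level was 1.5-fold apart in all 4 libraries, criteria that 0.167% of all genes met upward and 0.38% downward, so a count of 0 among 8 says nothing particular about them.

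Keratin and contractile genes were among the lower genes furthest apart, and Tagln had the largest ratio downward of the 25 in libraries 1 to 3. Of 12 on the list, 5 were considered by level and 3 of those were 1.5-fold lower in all 4 libraries, where 0.38% of all genes were. These 3, Tagln, Krt8 and Krt18, were each under 10 CPM in members of libraries 1 and 2, as were Tagln in library 3 and Krt8 in library 4, and reached the level required there only through the cells with no Dppa3 UMI, so nothing is read from that count. Tagln (transgelin), an actin-binding protein of smooth muscle, stood at 0.648, 0.865, 9.50 and 14.4 CPM in members and at 26.4, 23.1, 407 and 162 CPM in cells with no Dppa3 UMI. Krt8 and Krt18, the paired keratins of simple epithelia, lie 23.7 kb apart on chromosome 15, and their promoters are printed above. Krt8 stood at 1.56, 4.43, 19.8 and 8.93 CPM against 26.3, 20.3, 327 and 106 CPM. Krt18 stood at 5.05, 6.92, 19.6 and 12.7 CPM against 22.7, 20.9, 314 and 92.3 CPM. Libraries 3 and 4 had the most of these transcripts in both classes. Cald1 (caldesmon) was lower by log2 ratios of -1.73, -1.50, -3.90 and -2.15. Acta2 had 0, 3, 22 and 10 UMIs in members against 719, 489, 18617 and 1765 in the others.

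A Krt8 UMI was seen in 8.06%, 14.5%, 28.1% and 37.0% of cells with no Dppa3 UMI and in 2.71%, 8.22%, 15.2% and 11.8% of members. Thinned to 5000 UMIs the shares were 3.01%, 4.53%, 16.5% and 15.7% against 0.985%, 2.11%, 5.82% and 3.74%. High counts sat in fewer cells. Cells with at least 10 UMIs of Krt8, Krt18, Acta2 and Tagln together numbered 97, 76, 927 and 624 of kept cells, and 0, 0, 3 and 1 of them were members. Their Dppa3 level was 4.69, 17.5, 12.4 and 18.2 CPM, below the level over all kept cells of each library. Without such cells in either class, the log2 ratio of Tagln was -1.68, -2.35, -1.54 and -2.09 and that of Krt8 -1.56, -0.87, -0.45 and -1.79, and 13 of the 25 lower genes still met all criteria. At any level 16 of the 25 were still 1.5-fold lower in all 4 libraries, Tagln among them and Krt8 not. All 11 higher genes were still higher.

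Maternally expressed noncoding RNAs of the Dlk1-Dio3 imprinted region on chromosome 12 were lower in members. Meg3 (Gtl2) stood at 271, 314, 275 and 301 CPM in members against 416, 621, 495 and 771 CPM. Members were alike over the 4 libraries and all lay below the other cells. Rian stood at 75.9, 85.1, 76.7 and 81.1 CPM against 117, 159, 139 and 198 CPM. Mirg, a host of microRNAs at the far end of the region, stood at 11.9, 17.6, 14.8 and 18.1 CPM against 19.3, 29.9, 24.0 and 34.3 CPM. The 3 genes span 208 kb, and B830012L14Rik, also on chromosome 12, had log2 ratios of -0.75, -1.04, -0.95 and -1.50. Of 20 imprinted genes 9 were considered by level, and these 3 were the ones that were 1.5-fold lower in all 4 libraries, where 0.38% of all genes were. To any extent 6 of the 9 were lower in all 4, against 27.4% of all genes. The margin of the 3 was narrow. None of them met 1.5-fold in all 4 libraries with separate UMIs for choosing and reading (smallest ratios of -0.58 for Meg3, -0.56 for Rian and -0.57 for Mirg), with the highest 10% of cells (-0.46, -0.50 and -0.46) or without cells holding a Rhox6 or Rhox9 UMI (-0.51, -0.48 and -0.35), though each stayed lower in every library. Of the others, Peg3 had ratios between -0.31 and 0.05, Snrpn -0.09, -0.62, -0.27 and -0.97, Grb10 -0.57, -1.11, -1.68 and -2.43, and Igf2r 0.40, 0.43, -0.12 and 0.05. Zdbf2, an imprinted gene outside that list, had -0.72, -2.12, -1.15 and -1.30.

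The other lower genes included transcription factors of differentiating cells. Sox4 stood at 8.03, 15.7, 8.99 and 18.7 CPM against 23.8, 57.2, 51.6 and 101 CPM, and its relative Sox11 at 6.09, 14.1, 10.1 and 20.3 CPM against 14.2, 56.6, 54.5 and 91.1 CPM. Lmo4, a LIM-only cofactor, had log2 ratios of -1.50, -1.81, -1.71 and -2.43. Pim2, a serine/threonine kinase and the X-linked gene among the lower ones, stood at 10.2, 25.8, 18.0 and 40.2 CPM against 30.0, 118, 69.0 and 216 CPM. Car2 (carbonic anhydrase 2) had ratios of -0.84, -1.08, -1.62 and -1.42, Card19 of -0.84, -1.14, -0.89 and -1.18, Limd2 of -0.82, -1.44, -1.19 and -2.13, and Calca, the calcitonin gene, of -0.85, -0.71, -0.81 and -0.81. Mdk (midkine), Spop, Etv1, Rhobtb3, Pclaf, Eid1 and Abracl completed the 25, with ratios between -1.80 and -0.60. Calca and Spop were the most even of the 25 over the libraries.

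Markers of other cell types were near 0 in members. The 10 genes of the 2-cell-like state summed to 0.372 to 2.03 CPM, the 7 primitive endoderm genes to 1.298 to 2.33 CPM, the 6 trophectoderm genes to 1.08 to 2.48 CPM, and the 8 primed or primitive streak genes to 3.80 to 6.16 CPM. In cells with no Dppa3 UMI the 4 lists stood, over libraries 1 to 4, at 0.857, 1.001, 0.691 and 0.186 CPM for the 2-cell-like genes, 1.68, 1.91, 9.07 and 5.48 CPM for primitive endoderm, 1.27, 2.001, 5.25 and 3.85 CPM for trophectoderm, and 4.46, 10.1, 11.8 and 12.4 CPM for the primed or primitive streak genes. The 2-cell-like list had 16 UMIs in members of library 3, all in 3 cells, so its log2 ratio of 1.55 there rests on those cells and an interval from counting error does not apply. A UMI of the list was seen in 0.759% of these members and 0.393% of the library's cells with no Dppa3 UMI. Its intervals in the other libraries included 0. The interval lay below 0 for primitive endoderm in libraries 3 and 4, for trophectoderm in library 3 and for the primed list in libraries 2 to 4. The members there held 15 and 16 UMIs of primitive endoderm genes, 11 of trophectoderm genes and 57, 30 and 38 of primed genes. Such intervals take UMIs as independent and leave out any gathering of them in few cells. A 2-cell-like UMI was seen in 0.2% to 0.8% of members before thinning. Spic, an Ets factor, stood at 1.68, 5.19, 0.633 and 2.11 CPM in members against 0.787, 2.55, 0.159 and 0.404 CPM.

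Levels of several genes already differed below the cut. The cells with a Dppa3 UMI that were no members were split into 3 equal parts per library by Dppa3 share, which gave 5 classes from no UMI to members. Rhox6, Khdc3, Klhl13, Rbm47 and Calml4 increased at each step in all 4 libraries, and Pou3f1 decreased at each step in all 4. Rhox5, Tfap2c, Nanog, Zfp42, Esrrb, Kit, Dppa5a and the naive list increased at each step in 3 libraries, and Meg3, Zdbf2 and Tagln decreased at each step in 3. Rhox9 increased, and Dnmt3b, Krt8 and the formative list decreased, at each step in 2 libraries only. Khdc3 in library 4 went through 17.0, 23.7, 37.1, 54.1 and 105 CPM, and in library 1 through 44.6, 54.0, 57.5, 63.8 and 89.3 CPM. Rhox6 and Rhox9 together in library 2 went through 18.9, 24.9, 28.4, 54.4 and 118 CPM, and in library 1 through 26.7, 30.7, 41.4, 45.6 and 114 CPM. In library 3 they went through 16.0, 14.8, 24.8, 31.4 and 47.0 CPM. In library 4 they went through 14.2, 14.5, 34.5, 56.9 and 145 CPM. For this sum the step into the members was the largest in CPM in all 4 libraries. Dppa3 also took its largest step there, from 109 to 271 CPM in library 1 and from 206 to 484 CPM in library 2. In library 3 it went from 174 to 388 CPM and in library 4 from 192 to 460 CPM. Pou3f1 in library 4 went through 206, 183, 131, 70.0 and 31.1 CPM. The classes differed in depth, since a single UMI is a low share only in a deep cell. The median was 27220 UMIs in the lowest class with a UMI in library 1 and 17371 in the next.

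**Figure D4:**
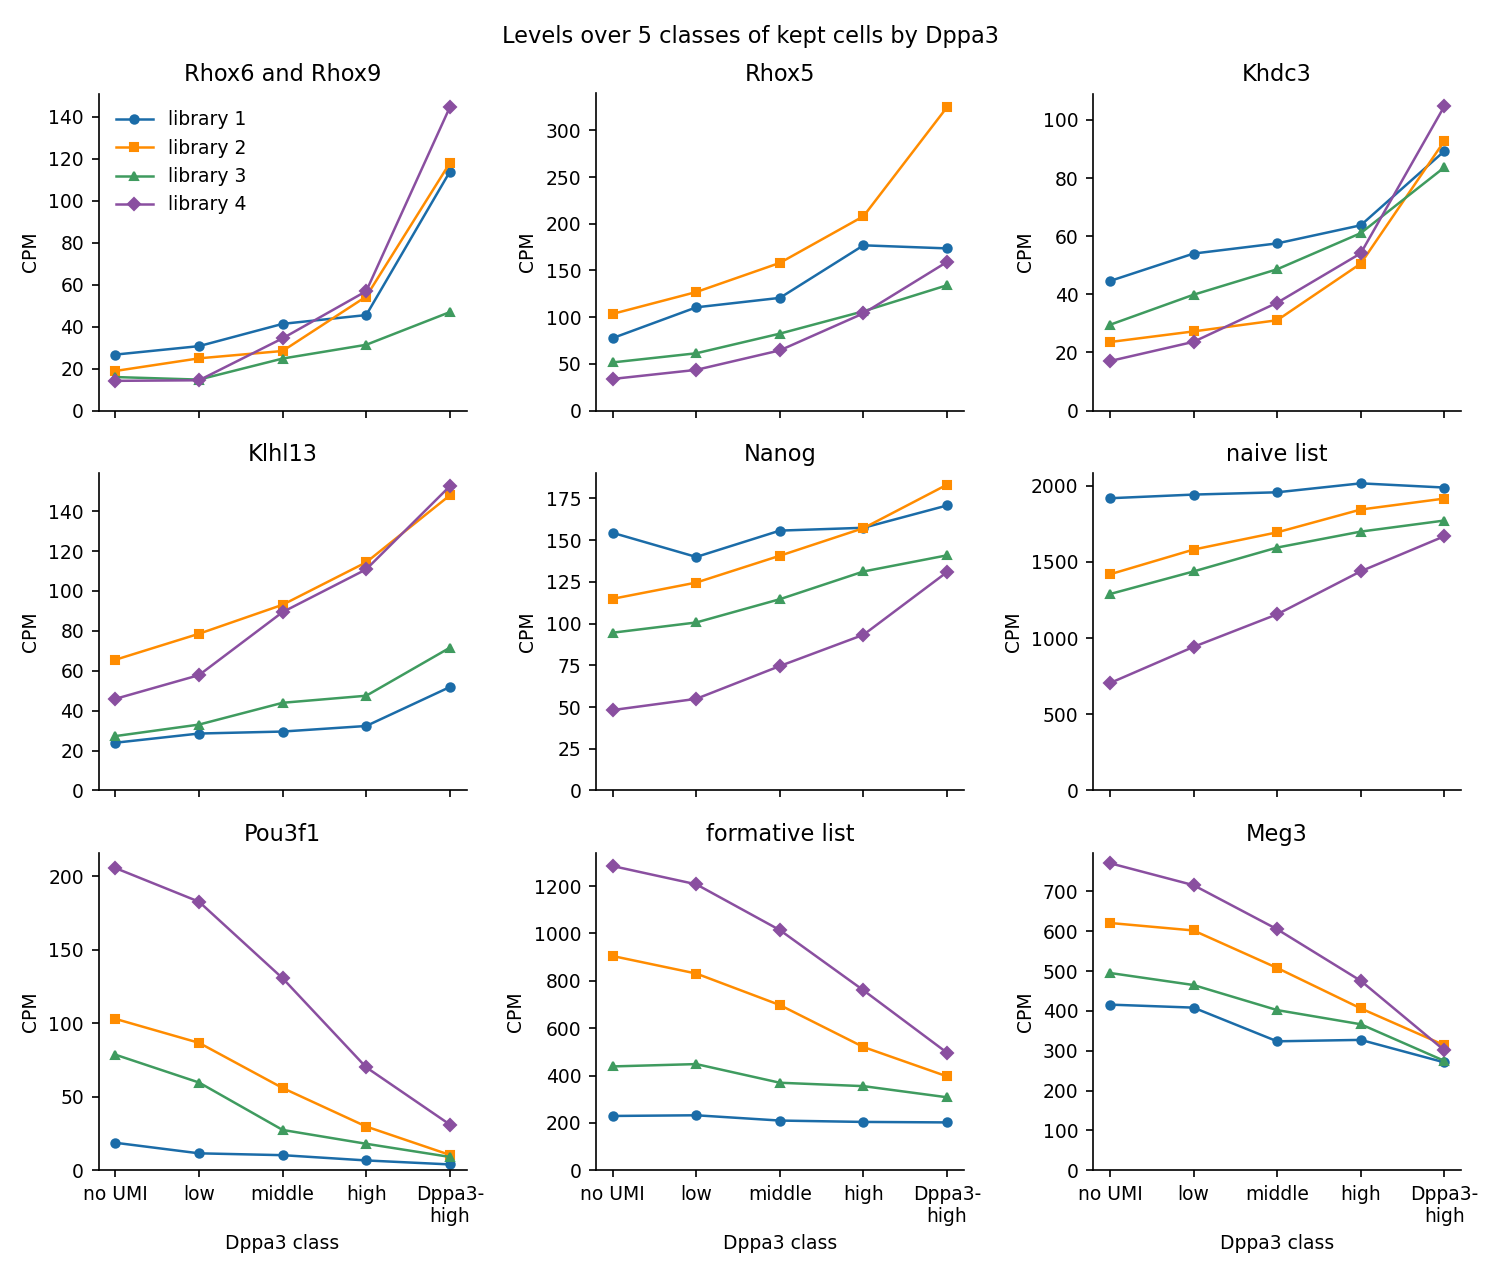
CPM of 6 genes, of Rhox6 and Rhox9 summed, and of the naive and formative lists summed, over 5 classes of kept cells by Dppa3 (no UMI, 3 equal parts of cells with a UMI below the cut, and the Dppa3-high cells), with a line for each library and axes from 0. Khdc3 and Klhl13 go up and Pou3f1 goes down at each step in all 4 libraries, and the naive list is flat only in library 1.

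The same contrast was then read within like naive levels. Cells with no Dppa3 UMI were weighted so that each of the 5 naive parts had the share it had among members, which brought the naive list to log2 ratios of 0.01 to 0.06. Rhox6 was then higher by 2.09, 2.38, 1.44 and 2.21, Rhox9 by 2.06, 2.17, 1.03 and 1.96, Rhox5 by 1.14, 1.49, 0.99 and 1.34, and Khdc3 by 0.99, 1.68, 1.01 and 1.39. Of the 11 higher genes 7 were still at least 1.5-fold higher in every library. Of the 25 lower genes 8 were still at least 1.5-fold lower in every library, and 4 of these also reached the level required: Meg3 by -0.60, -0.72, -0.67 and -0.97, Rian by -0.61, -0.63, -0.67 and -0.90, B830012L14Rik by -0.74, -0.82, -0.87 and -1.26, and Sox4 by -1.47, -1.15, -1.37 and -1.37. The other 4 missed the level. Pou3f1 had ratios of -1.96, -1.72, -1.44 and -1.16, Tagln of -5.01, -2.22, -3.16 and -1.52, Sox11 of -1.04, -1.14, -0.86 and -1.11, and Lmo4 of -1.36, -0.90, -0.59 and -1.19. Krt8 had -3.78, -0.17, -2.14 and -1.84 and Pim2 -1.31, -0.55, -0.51 and -0.60, so Krt8 lost most of its difference in library 2 and Pim2 in libraries 2 to 4. Krt18 had -1.86, 0.13, -2.14 and -1.27, so it turned direction in library 2. The remaining 17 lower genes were under 1.5-fold in at least 1 library at like naive level.

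The same rule was also applied to Nanog and to Tbx3, 2 other uneven genes of these cells. Each set of chosen cells was compared with the cells of its library that had no UMI of that gene. The cells set against them were unlike in number: those with no Nanog UMI were 781, 1609, 2003 and 3304 and those with no Tbx3 UMI 2949, 7181, 4884 and 7007 in libraries 1 to 4, against 6404, 4346, 5085 and 4413 with no Dppa3 UMI. In library 1 the cells with no Nanog UMI were thus a small part of all, and the Tbx3 rule left only 118 cells in library 4, or 1.58%. The 3 comparisons also share cells. The sizes below are therefore given side by side, and the differences between the rules were not tested. The higher and lower genes given here were called under the Dppa3 rule, which by itself favours larger values on Dppa3. Genes called under the Nanog or Tbx3 rule are not given, so the order of the rules is not read as a trait of Dppa3. Rhox6 had log2 ratios of 2.11, 2.78, 1.76 and 3.48 with cells chosen on Dppa3, 0.77, 2.23, 1.13 and 3.63 with cells chosen on Nanog, and 0.17, 0.52, 0.81 and 1.11 with cells chosen on Tbx3. Khdc3 had 1.00, 1.98, 1.503 and 2.62 on Dppa3, 0.06, 1.03, 1.06 and 1.93 on Nanog, and -0.29, 1.44, 0.54 and 1.42 on Tbx3. Calml4 had 0.81, 1.304, 1.42 and 2.02 on Dppa3, 0.19, 0.96, 0.72 and 0.98 on Nanog, and -0.34, 0.03, 0.36 and 0.45 on Tbx3. Rhox9 had 2.08, 2.501, 1.37 and 3.20 on Dppa3, 0.96, 1.63, 1.05 and 3.30 on Nanog, and -0.17, 0.83, 0.93 and 0.96 on Tbx3. These 4 genes had their largest values with Dppa3 in each library except for Rhox6 and Rhox9 in library 4, where Nanog gave the largest. Rhox5 did so except in library 3, where Tbx3 gave 1.45 against 1.38. Klhl13 and Krt42 had another order. Klhl13 had 0.72, 2.02, 1.11 and 2.07 on Nanog, above its values on Dppa3 in libraries 2 and 4, and Krt42 had 0.87, 1.82, 1.56 and 2.52 on Nanog, above them in all 4.

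Klf4 and Esrrb, as examples of naive genes, had their largest values on Nanog. Klf4 had ratios of -0.04, 0.34, 0.52 and 1.46 on Dppa3, 0.99, 2.19, 2.09 and 2.81 on Nanog, and 0.87, 0.80, 1.32 and 1.31 on Tbx3. Esrrb had -0.05, 0.39, 0.43 and 1.57 on Dppa3, 0.75, 1.67, 1.65 and 2.37 on Nanog, and 0.70, 0.72, 0.98 and 0.89 on Tbx3. Dnmt3b had -0.20, -1.36, -0.47 and -1.56 on Dppa3, -1.70, -2.12, -1.29 and -1.66 on Nanog, and -1.54, -1.36, -1.47 and -1.31 on Tbx3. In library 1 both naive genes were near 0 and Dnmt3b differed least when cells were chosen on Dppa3. Meg3 had -0.62, -0.98, -0.85 and -1.36 on Dppa3, -0.42, -1.01, -0.59 and -0.88 on Nanog, and -0.33, -0.69, -0.87 and -0.86 on Tbx3. Several of the leading lower genes, though not all, were further down on Nanog than on Dppa3 in all 4 libraries. Tagln had -7.59, -5.36, -7.86 and -5.12 on Nanog against -5.35, -4.74, -5.42 and -3.49 on Dppa3, and Pou3f1 had -4.42, -4.38, -4.95 and -3.40 against -2.22, -3.30, -3.11 and -2.72. On Tbx3, Tagln had -5.99, -2.81, -6.33 and 0.78 and Pou3f1 had -2.95, -2.91, -4.15 and -2.11. In library 4, where the Tbx3 rule chose 118 cells, Krt8 and Krt18 were also higher on Tbx3, at 1.35 and 1.87. Between Dppa3 and Nanog, Krt8, Krt18 and Pim2 had the same order as Tagln and Pou3f1. Sox4 was less far down on Nanog in library 1, at -1.52 against -1.56, and in library 4, at -2.10 against -2.43. Lmo4 was so in library 4, at -1.82 against -2.43.

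**Figure D5:**
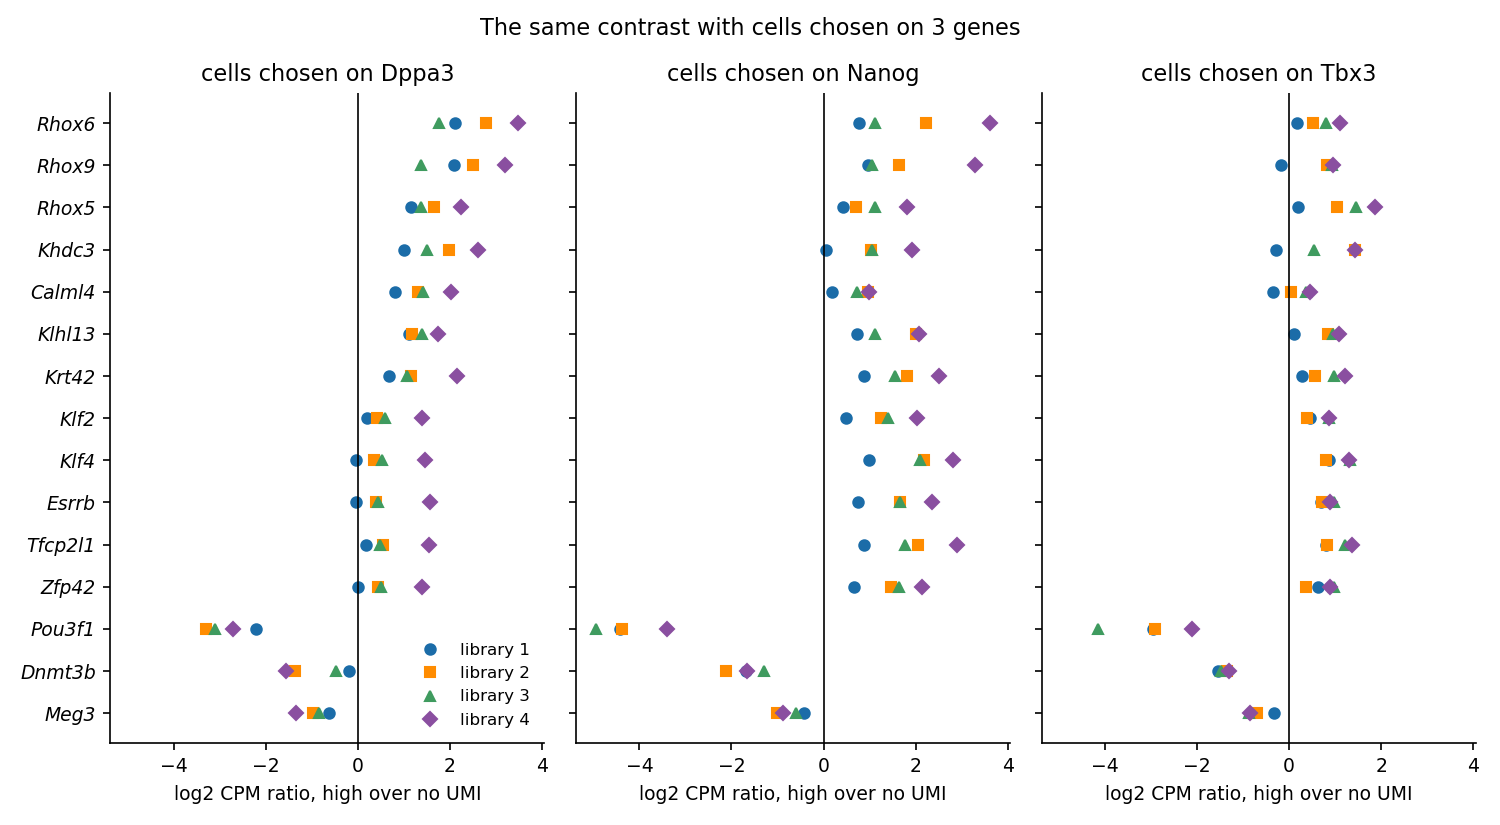
The log2 CPM ratio of 15 genes in cells chosen on Dppa3, on Nanog and on Tbx3 by the same rule over cells of the same library with no UMI of that gene, with a marker for each library. Khdc3 and Calml4, which were called as higher under the Dppa3 rule, lie furthest to the right when cells are chosen on Dppa3. Klf4, Esrrb and Tfcp2l1 do so when cells are chosen on Nanog.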

How the data were processed

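The 4 libraries of E14tg2a.4 cells, 2 WT and 2 Srrm2 hKO, were deposited as a pooled matrix of 32285 genes and 41142 barcodes. Its values are UMI counts that, per the labels and the study's methods, the authors made with Cell Ranger 6.1.2 on mm10 and aggregated at default settings, which evens out read depth between libraries. Raw counts were used as deposited, and the 4 barcode suffixes served as libraries.

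Cells were kept when their UMIs and detected genes each reached the library's mean minus 1 SD and their mitochondrial share was at most 10%. Doublets were not called. UMIs were summed per class and library, and CPM were taken without Dppa3. Cells are not replicates and the libraries could not be put in groups, so no test was run. Ratios carry exact 95% intervals conditional on the summed counts. Shares of cells were thinned to 5000 UMIs. No kept cell held fewer.

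The genes named were every list gene at least 1.5-fold apart in all 4 libraries, the naive and formative lists, the Dppa3 neighbours, and the 15 leading higher and 15 leading lower genes by smallest absolute log2 ratio. Of the genes this rule names, some are not reported here, though the counts include them. Others given as examples (Tfap2c, Nanos3, Kit and the like) were chosen after their values were seen. The members and lists were chosen with earlier results of these data known. Sequences came from RefSeq (GRCm38.p6) and gene positions from GENCODE vM21, matched on Ensembl ID for 32158 genes. Analyses used Python 3.11.15, numpy 2.4.6, scipy 1.17.1 and Biopython 1.88.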

Additional observations from a re-analysis of the deposited data

How the results depend on the processing

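The gene counts depend on the criteria and on library 1. Beside 11 higher and 25 lower genes, there were 20 and 52 at a mean of at least 5 CPM, 5 and 9 at 20 CPM, 156 and 362 with no level filter, 36 and 60 at 1.3-fold, and 5 and 9 at 2-fold. Leaving out each library in turn gave 12 to 34 higher and 25 to 103 lower genes, the most without library 1, and 18 higher genes without library 3. The highest 10% of cells (3131) gave 7 and 15 genes, and the highest 2.5% (801) gave 16 and 33.

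Higher genes numbered 8 with cells chosen on thinned counts and 8 with separate parts of the UMIs for choosing and reading. Lower genes numbered 11 with cells chosen on thinned counts, 14 with separate parts of the UMIs for choosing and reading, 16 without cells over 2 times the median UMIs, 14 without keratin and contractile cells and 4 against cells weighted to the members' naive level. With no level required, also chosen after seeing the data, 16 and 8 of the 25 stayed 1.5-fold lower under the last 2 settings. Without cells holding a Rhox6 or Rhox9 UMI, chosen after seeing the data, 4 genes were higher, 3 of them among the 11, of which Rhox6 and Rhox9 could not be called in this setting by its construction. Leaving out barcodes found in more than 1 library, also chosen after seeing the data, gave 12 and 25.

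The naive list, at a median over libraries of 0.45 on the log2 scale, was 0.33 against all other kept cells, 0.42 with UMI deciles matched, 0.33 on thinned counts, 0.39 on separate UMIs, 0.40 as a mean over cells, 0.48 with median scaling, 0.41 without cells over 2 times the median, 0.32 without keratin and contractile cells, 0.55 without Rhox6 or Rhox9 cells and 0.0292 weighted to the naive level. The formative list, at -0.85, was -0.73 against all other kept cells, -0.72 for the highest 10%, -0.59 on thinned counts, -0.76 on separate UMIs, -0.31 weighted to the naive level, -0.78 without Dnmt3b, and -1.19 to -0.51 when leaving out each library. The naive list weighted to the naive level is near 0 by construction, so the sign of that value is not read. Apart from that value, no direction turned under any of these. Every ratio pairs members with other cells of the same library. WT and hKO samples could not be paired because no library number is tied to a labelled sample. No result comes from a test.

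Lists over few UMIs, such as the 2-cell-like genes, are limited by depth, and their ratios have wide intervals.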
